A study of Mus musculus with 42 samples.

Results

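The genes described here are the amino acid transporter genes of the solute carrier (Slc) families Slc1a, Slc3a, Slc6a, Slc7a, Slc36a, Slc38a and Slc43a. They were chosen by symbol alone, as every gene entry of the deposited RNA count table whose symbol is 1 of these 7 family names followed by a number. The rule found 66 of 45317 gene entries. Of the 66, 30 had enough counts to be tested. The rule itself used no measured value, but the families, like the lists further below, were chosen with earlier results of these data known. The rule also takes in 3 entries that RefSeq annotates as long noncoding RNAs (Slc36a1os, Slc36a3os and Slc6a19os) and Slc7a6os, a neighbour of Slc7a6 that is no carrier.

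The cells were mesenchymal stromal cells (MSCs) from the bone marrow of C57BL/6 mice, bought as an expanded culture and kept undifferentiated, so every group shared the same strain, stock and medium. They were plated at 15000 cells/cm2, attached for 24 h and were then treated for 48 h. The solvent group received 0.1% dimethyl sulfoxide (DMSO), and the others received rosiglitazone (ROSI in the labels, 100 nM), AGN194204 (4204 in the labels, 100 nM) or tributyltin (TBT, 50 nM). RNA was sequenced in 6 libraries per treatment, and the histone marks H3K4me3 and H3K27me3 were mapped in 4 DMSO and 4 TBT libraries each. Rosiglitazone, an antidiabetic drug, binds and activates PPARγ, the nuclear receptor at the head of fat cell formation. AGN194204 (a rexinoid) activates the retinoid X receptors (RXR), the partners with which PPARγ and several related receptors bind DNA. TBT, used in antifouling paints and found as a pollutant, is an organotin that can act on RXR and on PPARγ. The title of the series asks what RXR activation does to chromatin and to the choice of the fat lineage.

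Gene counts per library ran from 3801758 to 5347365. All 9 stromal markers found in the table were detected, with summed levels of 1531 to 1670 CPM (counts scaled to a common library size of 1000000) over the 24 libraries. Within that sum Cd44 and Thy1 fell and Ly6a and Pdgfrb rose with both TBT and AGN194204, and Pdgfra also rose with AGN194204. Of the markers of other cells, Adgre1 (macrophages) and Lep (mature fat cells) had 0 counts, Adipoq had 1 and the pan-leukocyte gene Ptprc had 5, but others were present: in DMSO Cd34 of the blood list had a mean of 250.1 CPM, Cd14 of the macrophage list 44.8, Csf1r 5.99 and Cd68 5.40, and endothelial Flt1 7.02. The summed blood list, nearly all Cd34, was 243 to 261 CPM in DMSO, 247 to 262 with rosiglitazone, 211 to 233 with AGN194204 and 200.0 to 237 with TBT. The summed endothelial list was 10.1 to 16.2 CPM in DMSO, 5.62 to 10.4 with rosiglitazone, 5.63 to 8.48 with AGN194204 and 6.05 to 8.46 with TBT. The macrophage list overlapped DMSO with both TBT and AGN194204, at 53.6 to 61.1 CPM in DMSO and 56.8 to 68.8 with TBT. The summed level of the 5 mature adipocyte markers also differed with treatment, mostly through Fabp4: 1.37 to 3.79 CPM in DMSO, 16.998 to 21.9 with rosiglitazone, 18.3 to 26.6 with AGN194204 and 32.4 to 45.1 with TBT. The part of these markers in the transporter results was not tested. Whether the 6 libraries of a group were grown as independent cultures is not stated in the labels, and the p-values therefore cover the spread among these libraries, possibly technical, and no more. In such bulk RNA, fewer cells with a transcript and less of it per cell cannot be told apart.

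Amino acid carriers decide which amino acids a cell takes up, exchanges and releases from lysosomes. Members of Slc7a form heterodimers with the glycoprotein Slc3a2 or carry cationic amino acids on their own, Slc1a and Slc38a members move glutamate, glutamine and other neutral amino acids, and Slc6a members move glycine, taurine, creatine and transmitters. Several of these genes are known targets of the transcription factor ATF4, which is made when amino acids run short, and lysosomal carriers pass amino acid signals to the kinase complex mTORC1, which drives growth and is active during fat cell formation.

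The 30 tested genes were the expressed set: 4 of 7 Slc1a entries, 1 of 2 Slc3a, 5 of 21 Slc6a, 8 of 16 Slc7a, 2 of 6 Slc36a, 7 of 11 Slc38a and 3 of 3 Slc43a. A mean of at least 1 CPM in at least 1 treatment was met by 32 entries, which adds Slc1a2 and Slc3a1. At least 1 count was found for 53 entries, and 13 had 0 counts in all 24 libraries, which allows up to 0.0286 CPM over all libraries together (3 counts, counting error only). Those at 0 included Slc1a1, Slc6a13, Slc6a15, Slc6a16, Slc6a18, Slc6a19os, Slc6a20a, Slc7a9, Slc7a10, Slc36a2, Slc36a3 and Slc38a11. Among them was Slc7a9, the cystine carrier of the kidney. Slc3a1, the partner of Slc7a9, had 125 counts in total, the glial glutamate carrier Slc1a2 104, the brain proline carrier Slc6a7 66 and Slc7a4 56. Slc6a20b had 34 counts, the serotonin carrier Slc6a4 20 and Slc38a3 14. The other 16 untested entries had 1 to 10 counts each.

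The genes that rose with TBT included carriers of leucine (Slc7a5), glutamine (Slc1a5), cystine (Slc7a11), glycine (Slc6a9), taurine (Slc6a6) and cationic amino acids (Slc7a1 and Slc7a3), and a lysosomal exporter (Slc36a1), and of the genes that rose only Slc7a3 changed by more than 2-fold. With TBT, 18 of the 30 tested genes were higher than in DMSO and 0 lower (edgeR's quasi-likelihood test, Benjamini-Hochberg adjusted p below 0.05 over 12529 genes). Over all genes tested the same comparison called 15% higher and 13.9% lower. The median log2 fold change was 0.17 over the 30 genes and -0.01 over all genes. With counts scaled to the ERCC spike-ins, RNA added in known amounts, 15 of the 30 were higher and 0 lower, while over all genes the split went from 1878 higher and 1745 lower to 1802 higher and 293 lower. Among the 22 members with a mean of at least 10 CPM, 16 were higher, against 16.5% of all genes at that level. In 10 members every TBT library lay above every DMSO library and in 0 below, where 6.73% and 4.98% of all genes did so.

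AGN194204 gave 9 members higher than DMSO and 1 lower, with 12.8% of all genes higher and 11.3% lower. The median was 0.08 over the members, and in 5 of them all AGN194204 libraries lay above all DMSO libraries and in 0 below (6.9% and 4.68% of all genes). With spike-in scaling 3 of the 30 tested members were higher (Slc38a7, Slc43a1 and Slc43a2) and 0 lower. Over all 12529 genes that scaling gave 908 higher and 300 lower. Rosiglitazone gave 0 members higher and 0 lower by edgeR, and 0 by DESeq2, with 0.615% of all genes higher and 0.423% lower by edgeR. At an unadjusted p below 0.05 there were 3, and the lowest adjusted p among members was 0.136, for the glycine carrier Slc6a9.

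All 9 genes that rose with AGN194204 also rose with TBT: Slc7a1, Slc7a3, Slc7a5, Slc36a1, Slc38a7, Slc38a10, Slc43a1, Slc43a2 and Slc6a8. The comparisons share the DMSO libraries. A further 9 passed only with TBT: Slc1a4, Slc1a5, Slc3a2, Slc6a6, Slc6a9, Slc7a6, Slc7a11, Slc38a2 and Slc38a4. When TBT and AGN194204 were compared directly, 1 of those 9, the taurine carrier Slc6a6, passed the threshold, so for the other 8 no difference between the compounds was shown. The cationic carrier Slc7a2 was the only member lower with AGN194204 in that fit. The summed level of all members was 2800 to 2964 CPM in DMSO, 2851 to 2925 with rosiglitazone, 2895 to 3067 with AGN194204 and 3103 to 3376 with TBT. The TBT libraries thus lay above all others in the summed level.

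**Figure D1:**
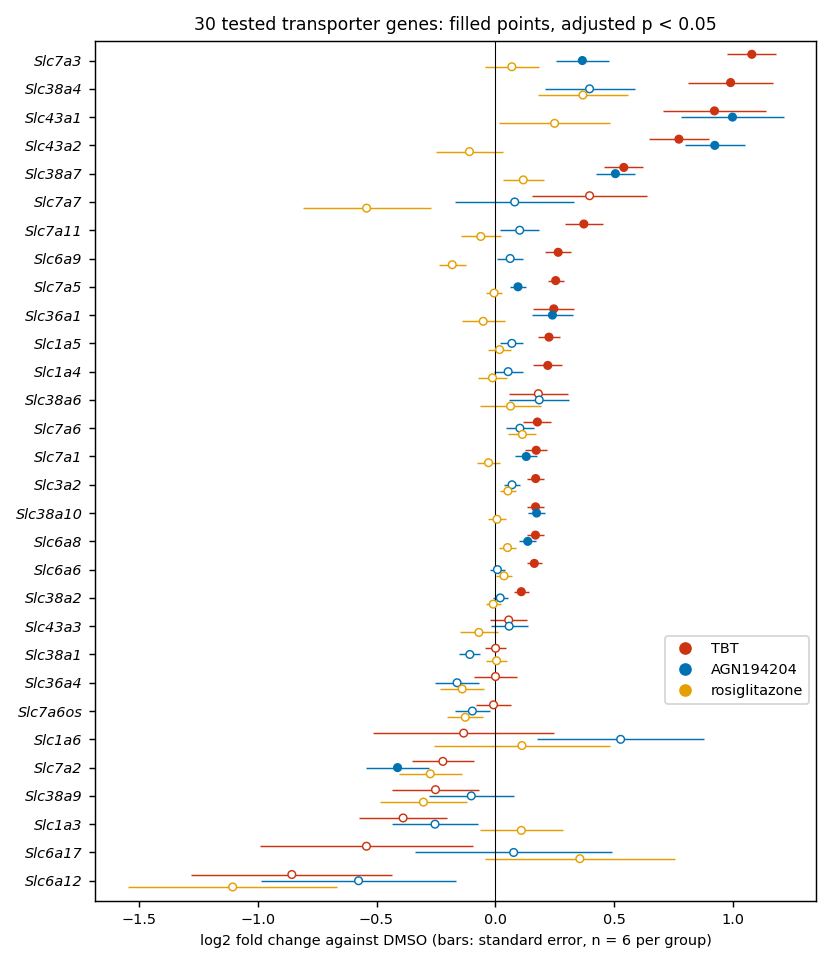
Log2 fold change against DMSO (horizontal axis) of the 30 tested transporter genes (vertical axis), ordered by their change with TBT; points are the 3 compounds, bars the standard error with 6 libraries per group, and filled points have an adjusted p below 0.05. The TBT points of 18 genes and the AGN194204 points of 9 are filled to the right of 0, Slc7a2 is filled to the left with AGN194204, and no rosiglitazone point is filled.

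The cationic amino acid carriers of Slc7a import arginine, lysine and ornithine. Slc7a3 (chrX:101079146-101090452, GRCm38.p6 as annotated by RefSeq) showed the largest called rise of all members with TBT. Its lowest, median and highest levels were 15.4, 17.1 and 19.7 CPM in DMSO, 15.5, 17.7 and 21.4 with rosiglitazone, 17.2, 22.6 and 27.7 with AGN194204 and 31.1, 37.0 and 40.8 with TBT. Every TBT library was above every library of the other 3 groups, and the AGN194204 libraries overlapped DMSO. The log2 fold change was 1.08 ± 0.10 with TBT (SE, n = 6 per group, adjusted p = 1.04e-10) and 0.37 ± 0.11 with AGN194204 (adjusted p = 0.0123). The AGN194204 call fell to an adjusted p of 0.0515 without AGN194204 replicate 6 and was lost with spike-in scaling.

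Slc7a1, the broadly expressed cationic carrier, rose from 213 ± 12.5 CPM (SD, n = 6) in DMSO to 239 ± 20.7 with TBT and 233 ± 12.3 with AGN194204. The log2 changes were 0.17 ± 0.05 (adjusted p = 0.00392) and 0.13 ± 0.05 (adjusted p = 0.0347), and rosiglitazone stood at -0.03 ± 0.05. The groups overlapped in both. The AGN194204 call was past the threshold in 5 of 12 fits that each left out a library of these groups. Slc7a2 moved the other way, from 16.3 ± 2.37 CPM to 12.3 ± 3.15 with AGN194204 (fell by 0.41 ± 0.13 on the log2 scale, adjusted p = 0.0206), a call that held in 9 of those 12 fits. With TBT Slc7a2 stood at -0.22 ± 0.13 (adjusted p = 0.218).

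Slc43a1 and Slc43a2 encode facilitators of branched-chain and other large neutral amino acids, and they were the members that rose most with AGN194204. For Slc43a2 (chr11:75529915-75577575) the lowest, median and highest levels were 10.6, 17.8 and 21.99 CPM in DMSO and 12.3, 14.999 and 19.8 with rosiglitazone. They were 27.6, 30.2 and 39.4 with AGN194204 and 24.9, 28.5 and 33.1 with TBT. All AGN194204 and TBT libraries lay above all DMSO and rosiglitazone libraries. The log2 fold change was 0.92 ± 0.13 with AGN194204 (adjusted p = 3.99e-07) and 0.77 ± 0.13 with TBT (adjusted p = 9.21e-06), and the difference between TBT and AGN194204 was -0.15 ± 0.12 (adjusted p = 0.726).

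Slc43a1 (chr2:84838855-84863586) had lowest, median and highest levels of 3.98, 5.50 and 8.23 CPM in DMSO, 4.44, 5.48 and 11.6 with rosiglitazone, 9.28, 10.3 and 16.3 with AGN194204 and 7.87, 11.1 and 14.5 with TBT. The AGN194204 libraries were all above DMSO, and the lowest TBT library was just below the highest DMSO library. The log2 fold change was 1.00 ± 0.22 with AGN194204 (adjusted p = 0.000508) and 0.92 ± 0.22 with TBT (adjusted p = 0.00112). Slc43a3, a related protein that carries purine bases, stood at 0.06 ± 0.08 in each of those comparisons, from 52.7 ± 5.99 CPM in DMSO.

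**Figure D2:**
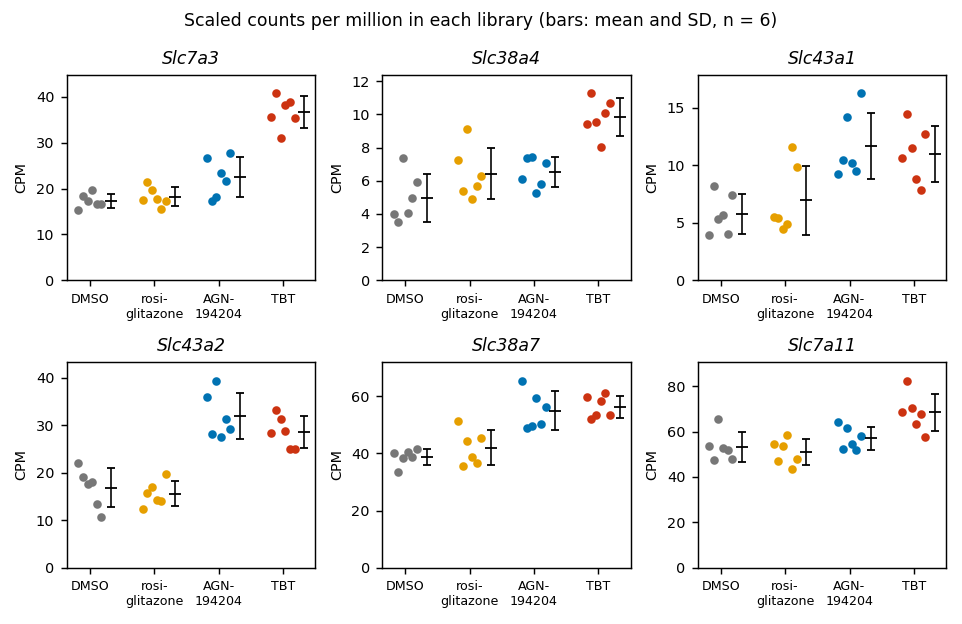
Levels in CPM (vertical axes, from 0) of the 5 members with called changes of at least 0.5 on the log2 scale against DMSO and of Slc7a11, in each of the 6 libraries of the 4 treatments (horizontal axes); black bars are the mean and SD. Slc7a3 and Slc38a4 are highest with TBT, while the means of Slc43a1, Slc43a2 and Slc38a7 are higher with both AGN194204 and TBT than with DMSO.

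Lysosomal carriers return amino acids from degraded protein to the cytosol. Slc38a7 (chr8:95835920-95853577), the lysosomal glutamine exporter, had lowest, median and highest levels of 33.3, 39.4 and 41.4 CPM in DMSO, 35.5, 41.5 and 51.4 with rosiglitazone, 48.7, 53.2 and 65.5 with AGN194204 and 51.9, 55.9 and 61.0 with TBT. All libraries of both TBT and AGN194204 lay above all DMSO libraries, and those of TBT also above rosiglitazone. The log2 fold change was 0.54 ± 0.08 with TBT (adjusted p = 2.27e-06) and 0.51 ± 0.08 with AGN194204 (adjusted p = 9.85e-06), with a difference of 0.04 ± 0.08 between them. Rosiglitazone stood at 0.12 ± 0.09 (adjusted p = 0.652).

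Slc36a1 (chr11:55204322-55236330), a proton-coupled carrier of small amino acids in lysosomes and at the cell surface, rose from 36.9 ± 2.90 CPM to 43.8 ± 3.73 with TBT (log2 0.25 ± 0.09, adjusted p = 0.0301) and to 43.5 ± 7.61 with AGN194204 (0.24 ± 0.09, adjusted p = 0.0396). These calls lay near the threshold: they passed in 8 of 12 fits with a library left out for TBT and in 5 of 12 for AGN194204. The log2 change over those fits was 0.21 to 0.28 for TBT and 0.18 to 0.29 for AGN194204. The lysosomal arginine sensor Slc38a9 was at 9.18 ± 1.75 CPM in DMSO and did not pass in any comparison with DMSO (-0.25 ± 0.18 with TBT, adjusted p = 0.324). Slc36a4, a relative of Slc36a1, stood at 0.00 ± 0.09 with TBT.

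Slc38a10, a less characterised carrier of the same family, had lowest, median and highest levels of 204, 210 and 221 CPM in DMSO, 209, 213 and 217 with rosiglitazone, 230.0, 232 and 256 with AGN194204 and 223, 236 and 258 with TBT. The libraries of TBT and AGN194204 were all above those of DMSO and rosiglitazone, although the log2 change was 0.17 ± 0.04 in each (adjusted p = 0.000504 with TBT and 0.000443 with AGN194204). The size was thus small beside that of Slc38a7 while the separation of libraries was as complete.

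The proximal promoters of 3 of these genes, and of Slc1a6, hold the E-box CACGTG (searched on both strands; it reads the same on either), the core that the lysosomal regulators of the MiT/TFE family and other basic helix-loop-helix factors bind. They are shown because Slc36a1, Slc38a7 and Slc43a1 rose with both TBT and AGN194204. Each stretch is 100 bases, 5′ to 3′ on the gene's strand, from RefSeq (GRCm38.p6), with the E-box in capitals:
Slc36a1 (chr11:55204244-55204343, plus strand): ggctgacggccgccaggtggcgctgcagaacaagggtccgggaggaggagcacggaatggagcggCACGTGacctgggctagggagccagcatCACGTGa
Slc38a7 (chr8:95853492-95853591, minus strand): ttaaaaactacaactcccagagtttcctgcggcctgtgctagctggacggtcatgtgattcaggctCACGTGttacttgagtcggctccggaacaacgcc
Slc43a1 (chr2:84840223-84840322, plus strand): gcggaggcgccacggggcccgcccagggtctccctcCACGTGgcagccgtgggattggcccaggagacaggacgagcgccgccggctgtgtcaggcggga
The first bases of the matches lie at -31 and -3 in Slc36a1, -34 in Slc38a7 and -64 in Slc43a1, counted from -1 for the base before the start site. Promoters here are 250 bases before to 50 after a RefSeq start, and the table held 38 of them for 22 of the 30 tested genes. It held none for Slc1a5, Slc38a1, Slc43a3, Slc6a6, Slc6a8, Slc7a2, Slc7a3 and Slc7a5. The motif counts here and below therefore do not cover these genes, among them Slc7a3, which had the largest called rise with TBT. The E-box was in 4 of the 38, and in 7.15% of 32851 promoters of the same length. A match is a description of the letters and not evidence of binding.

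Heterodimeric exchangers pair the heavy chain Slc3a2 with light chains of Slc7a. The light chain Slc7a5, which imports leucine and other large neutral amino acids in exchange for glutamine, had lowest, median and highest levels of 278, 292 and 310 CPM in DMSO, 288, 294 and 302 with rosiglitazone, 299, 316 and 327 with AGN194204 and 333, 352 and 373 with TBT. Every TBT library was above every library of the other 3 groups. The log2 change was 0.25 ± 0.03 with TBT (adjusted p = 1.91e-07) and 0.10 ± 0.03 with AGN194204 (adjusted p = 0.0368), the latter past the threshold in 5 of 12 fits with a library left out.

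The heavy chain Slc3a2 rose with TBT from 219 ± 7.05 to 247 ± 11.8 CPM (0.17 ± 0.03, adjusted p = 0.000234) and stood at 0.07 ± 0.04 with AGN194204 (adjusted p = 0.148). Slc7a6, which exchanges arginine for glutamine with sodium, rose with TBT from 67.5 ± 3.55 to 76.1 ± 7.09 CPM (0.18 ± 0.06, adjusted p = 0.0206). That call was lost without DMSO replicate 3 (adjusted p = 0.0587), without TBT replicate 2 (0.0925) and with spike-in scaling (0.0691). Its close relative Slc7a7 was at 4.82 ± 1.42 CPM in DMSO and 6.39 ± 1.85 with TBT (0.40 ± 0.24, adjusted p = 0.231).

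Slc7a11, the light chain of the cystine-glutamate exchanger that supplies cysteine for glutathione, rose with TBT from 53.2 ± 6.56 to 68.4 ± 8.27 CPM. Its lowest, median and highest levels were 47.4, 52.3 and 65.5 CPM in DMSO, 43.5, 50.9 and 58.7 with rosiglitazone, 51.7, 56.2 and 64.2 with AGN194204 and 57.7, 68.1 and 82.5 with TBT. The overlap of DMSO and TBT came from DMSO replicate 3, the other 5 DMSO libraries lying at 47.4 to 53.6 CPM. The log2 change was 0.37 ± 0.08 with TBT (adjusted p = 0.000417), 0.10 ± 0.08 with AGN194204 (adjusted p = 0.408) and 0.27 ± 0.08 between these compounds (adjusted p = 0.113).

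**Figure D3:**
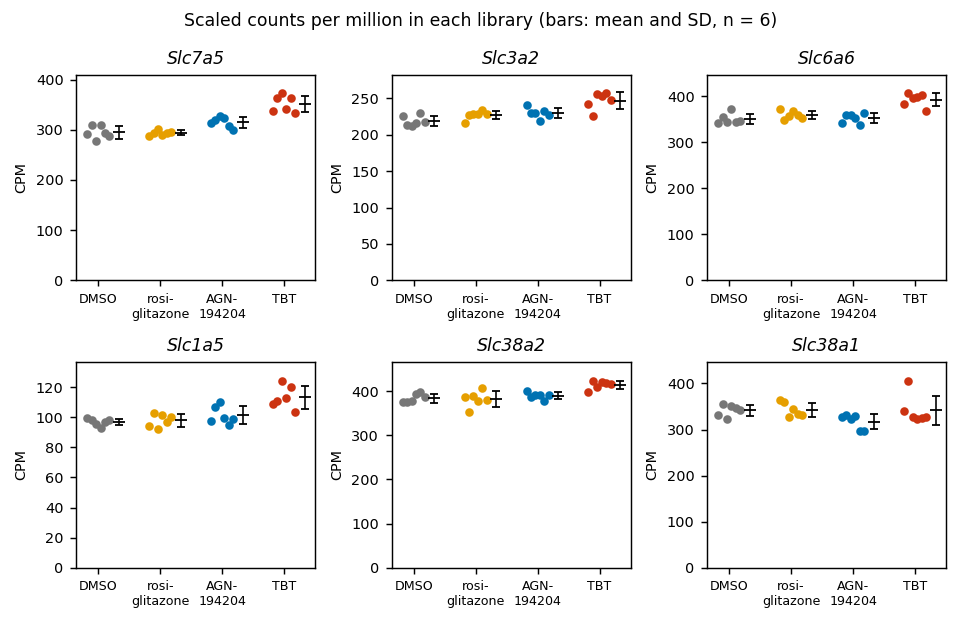
Levels in CPM (vertical axes, from 0) of 6 abundant members in each of the 6 libraries of the 4 treatments (horizontal axes); black bars are the mean and SD. The rises with TBT are small beside the level of each gene, Slc7a5 and Slc1a5 with TBT lie wholly above DMSO, and for Slc38a1 a lone TBT library at 406 CPM stands above the others.

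The Slc1a carriers of neutral amino acids rose with TBT by small amounts. Slc1a5, a main importer of glutamine, had lowest, median and highest levels of 92.9, 97.5 and 99.4 CPM in DMSO, 92.2, 98.5 and 103 with rosiglitazone, 95.2, 99.5 and 110 with AGN194204 and 103, 112 and 124 with TBT, so that all TBT libraries lay above DMSO. The change was 0.23 ± 0.05 (adjusted p = 0.000299). Slc1a4, which exchanges alanine, serine and cysteine, rose from 76.6 ± 6.47 to 89.1 ± 8.08 CPM (0.22 ± 0.06, adjusted p = 0.00473), with overlap. With AGN194204 these stood at 0.07 ± 0.05 and 0.05 ± 0.06, not past the threshold.

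Of the sodium-coupled Slc38a carriers of the cell surface, Slc38a2, the amino acid-regulated glutamine and alanine importer, had lowest, median and highest levels of 375, 382 and 399.4 CPM in DMSO, 354, 384 and 407 with rosiglitazone, 378, 391 and 401 with AGN194204 and 399.4, 418 and 424 with TBT. The highest DMSO and the lowest TBT library were almost equal, and the change of 0.11 ± 0.03 (adjusted p = 0.00615) was the smallest among the TBT calls and was not past the threshold with spike-in scaling (adjusted p = 0.0540). Slc38a1, the closely related glutamine importer, stood at 0.00 ± 0.04 with TBT and -0.11 ± 0.04 with AGN194204 (adjusted p = 0.0751), a fall that passed when only the DMSO and AGN194204 libraries were fitted.

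Slc38a4 (chr15:96994816-97055956), a carrier of neutral and cationic amino acids that is prominent in liver and placenta, had a low level and the next largest rise after Slc7a3. Its lowest, median and highest levels were 3.53, 4.51 and 7.36 CPM in DMSO, 4.89, 5.98 and 9.12 with rosiglitazone, 5.24, 6.60 and 7.43 with AGN194204 and 8.06, 9.81 and 11.3 with TBT. All TBT libraries were above all DMSO and AGN194204 libraries. The log2 change was 0.99 ± 0.18 with TBT (adjusted p = 3.67e-05), 0.40 ± 0.19 with AGN194204 (adjusted p = 0.128), 0.37 ± 0.19 with rosiglitazone (adjusted p = 0.472) and 0.59 ± 0.17 between TBT and AGN194204 (adjusted p = 0.0966).

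Promoters of Slc7a11 and Slc1a4 hold the C/EBP-ATF response element core TGATGNAA (N is any base, either strand), the letters that ATF4 dimers bind at amino acid-responsive genes. They are shown because both genes passed the threshold with TBT and not with AGN194204. Compared directly, TBT and AGN194204 did not differ past the threshold for either gene (adjusted p = 0.113 for Slc7a11 and 0.242 for Slc1a4). The core is in capitals and reads TTGCATCA where it lies on the opposite strand:
Slc7a11 (chr3:50443614-50443713, minus strand): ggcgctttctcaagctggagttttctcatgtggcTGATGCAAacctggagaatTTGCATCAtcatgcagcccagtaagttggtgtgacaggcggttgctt
Slc1a4 (chr11:20332710-20332809, minus strand): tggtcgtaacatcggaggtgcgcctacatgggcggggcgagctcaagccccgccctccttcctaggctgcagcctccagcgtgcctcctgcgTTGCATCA
The first bases of the matches lie at -66 and -47 in Slc7a11 and at -4 in Slc1a4. The core was found in 4 of the 38 promoters of tested members, those of these 2 genes and 2 of Slc7a7, and in 3.97% of all promoters. Slc7a7 holds it without a called change against DMSO, and its 2 promoters with the core overlap and share a match.

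The DR1 element of PPAR-RXR dimers (the hexamer AGGTCA repeated after 1 base, up to 2 mismatches) was found in 1 of the 38 promoters, of Slc6a12, and in 3.86% of all promoters. The DR4 element used by LXR-RXR dimers (the same hexamer repeated after 4 bases, up to 2 mismatches) was found in 0 of the 38 and in 3.02% of all. The antioxidant response element TGACNNNGC was in 8 of the 38 and in 12.4% of all promoters. Those 8 belong to Slc36a1, Slc38a2, Slc43a1, Slc6a9, Slc7a1 and Slc7a6, and the 2 promoters of Slc7a6 overlap and share 1 match. All 6 genes were higher with TBT, as were 13 of the 22 members with a promoter in the table, and 3 of the 6 (Slc38a2, Slc7a1 and Slc7a6) were not past the threshold with spike-in scaling. This element was searched in another form than first planned, so the count is a description only. Both strands were searched, and no match of an E-box overlapped another E-box.

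Slc6a carriers move small osmolytes and transmitters. Slc6a9, the glycine carrier, had lowest, median and highest levels of 51.3, 58.2 and 59.2 CPM in DMSO, 45.7, 50.2 and 56.4 with rosiglitazone, 56.9, 60.0 and 61.5 with AGN194204 and 63.2, 68.7 and 72.8 with TBT. All TBT libraries lay above all libraries of the other groups. The change was 0.26 ± 0.05 with TBT (adjusted p = 0.000269), 0.06 ± 0.06 with AGN194204 and -0.18 ± 0.06 with rosiglitazone (adjusted p = 0.136), and the direct difference between AGN194204 and rosiglitazone was 0.24 ± 0.06 (adjusted p = 0.00146).

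The creatine carrier Slc6a8 had lowest, median and highest levels of 174, 188 and 192 CPM in DMSO, 184, 189 and 202 with rosiglitazone, 193, 204 and 211 with AGN194204 and 199, 207 and 215 with TBT. TBT and AGN194204 libraries were all above DMSO, with changes of 0.17 ± 0.04 (adjusted p = 0.000322) and 0.14 ± 0.04 (adjusted p = 0.00394). The taurine carrier Slc6a6 rose with TBT from 351 ± 11.5 to 393 ± 14.6 CPM (0.16 ± 0.03, adjusted p = 8.92e-05) and stood at 0.01 ± 0.03 with AGN194204. The betaine carrier Slc6a12 and the vesicular carrier Slc6a17 were near the limit of testing, at 2.72 ± 0.99 and 1.59 ± 1.03 CPM in DMSO, and no comparison with DMSO passed for them.

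The glutamate carriers Slc1a3 and Slc1a6, known from glia and neurons, did not pass against DMSO. Slc1a3 was at 10.2 ± 3.09 CPM in DMSO, 10.9 ± 2.24 with rosiglitazone, 8.45 ± 1.49 with AGN194204 and 7.66 ± 1.86 with TBT. It was lower with TBT than with rosiglitazone (fell by 0.50 ± 0.18 on the log2 scale, adjusted p = 0.0385), a call that held in 5 of 12 fits with a library left out and not with spike-in scaling. Slc7a6os, the neighbour of Slc7a6, stood at -0.01 ± 0.07 with TBT.

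The compounds were also compared with each other, at unlike doses where TBT (50 nM) was set against the others (100 nM each), so those differences join compound and dose. TBT against AGN194204 gave 3 members higher and 0 lower, with 0.407% of all genes higher and 0.439% lower, and 11 of 30 members at an unadjusted p below 0.05. The 3 were Slc7a3 (0.71 ± 0.10, adjusted p = 2.58e-05), Slc6a6 (0.16 ± 0.03, adjusted p = 0.00493) and Slc7a5 (0.16 ± 0.03, adjusted p = 0.00834). For all 3 every TBT library lay above every AGN194204 library, as it did for 5 of the 30 members and 0.423% of all genes. Slc6a6 and Slc7a5 were not past the threshold with spike-in scaling (log2 0.24 each, adjusted p = 0.387 and 0.395) or when only these groups were fitted (log2 0.16 each, adjusted p = 0.0505 and 0.0634), the differences being no smaller there, whereas Slc7a3 passed under each of the 7 alternatives run.

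TBT against rosiglitazone gave 18 members higher and 1 lower (15.2% and 13.5% of all genes). The 5 largest were Slc7a3 (1.01 ± 0.10), Slc7a7 (0.94 ± 0.26), Slc43a2 (0.88 ± 0.13), Slc43a1 (0.67 ± 0.21) and Slc38a4 (0.62 ± 0.17), with adjusted p of 9.22e-10 to 0.0146. Slc7a7 passed here and not against DMSO, its lowest, median and highest levels being 0.98, 3.46 and 5.07 CPM with rosiglitazone and 4.28, 5.96 and 9.03 with TBT. At the matched dose of 100 nM, AGN194204 against rosiglitazone gave 9 members higher and 0 lower (13.5% and 11.2% of all genes). The largest were Slc43a2 (1.03 ± 0.13, adjusted p = 7.50e-08), Slc43a1 (0.75 ± 0.21, adjusted p = 0.00749), Slc38a7 (0.39 ± 0.08, adjusted p = 0.000447), Slc7a3 (0.30 ± 0.11, adjusted p = 0.0448) and Slc36a1 (0.29 ± 0.09, adjusted p = 0.0128). The Slc7a3 call was past the threshold in 4 of 12 fits with a library left out and under 3 of the 7 alternatives.

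Other genes that handle amino acids were counted in the same fit. Their lists were chosen with earlier results of these data known. Of 27 tested genes of the ATF4 amino acid response, 18 rose and 1 fell with TBT (15% and 13.9% of all genes), with a median of 0.23. With AGN194204 11 rose and 1 fell (12.8% and 11.3% of all genes), with a median of 0.10. With rosiglitazone 0 passed (0.615% and 0.423% of all genes), with 2 at an unadjusted p below 0.05 and none called by DESeq2. The largest rises with TBT were those of the ATF4-induced pseudokinase Trib3 (0.76 ± 0.07, from 52.4 ± 2.68 to 88.9 ± 8.13 CPM), the lipoprotein receptor Vldlr (0.69 ± 0.08), the mTORC1 inhibitor Sesn2 (0.63 ± 0.08) and the stress factor Atf3 (0.60 ± 0.19). Atf4 itself rose by 0.13 ± 0.04, and the serine synthesis enzyme Psat1 fell by 0.11 ± 0.03. TBT (50 nM) was above AGN194204 (100 nM) for 4 of the 27, which were Trib3, Asns, Aldh1l2 and Pck2, and below it for 0. Over all genes 0.407% were higher and 0.439% lower in that comparison. Its calls over all genes went from 51 higher to 13 with spike-in scaling.

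The 20 aminoacyl-tRNA synthetases, many of which are also listed as ATF4 targets, had 2 higher and 2 lower with TBT (15% and 13.9% of all genes), and 0 higher and 4 lower with AGN194204 (12.8% and 11.3% of all genes), with Iars at -0.16 ± 0.04. Of 32 mTORC1 amino acid sensing genes, 0 rose and 1 fell with TBT, and 1 rose and 1 fell with AGN194204. The gene that fell in each was Mitf, a lysosomal and melanocyte regulator of the MiT/TFE family (-0.78 ± 0.09 with TBT, from 43.9 ± 3.57 to 25.6 ± 3.50 CPM, and -0.61 ± 0.09 with AGN194204), and the gene that rose with AGN194204 was Flcn (0.23 ± 0.07).

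Among 29 enzymes of amino acid metabolism 3 rose and 5 fell with TBT, and 2 rose and 5 fell with AGN194204. Over all genes 15% were higher and 13.9% lower with TBT, 12.8% and 11.3% with AGN194204, and 0.615% and 0.423% with rosiglitazone. The genes named from these lists are their largest called changes. Ass1, which makes the arginine precursor argininosuccinate, fell from 8.42 ± 2.04 to 2.05 ± 0.78 CPM with TBT (-2.04 ± 0.23). Pycr1, the last step of proline synthesis, rose by 0.65 ± 0.08, Csad, of taurine synthesis, by 0.50 ± 0.07, and Odc1, of polyamine synthesis, fell by 0.36 ± 0.05. Of 10 glutathione and cystine genes 2 rose and 3 fell with TBT and 2 rose and 3 fell with AGN194204, while 1, the haem oxygenase Hmox1, rose with rosiglitazone. Hmox1 rose by 0.60 ± 0.04 with TBT, while glutathione reductase (Gsr) fell by 0.25 ± 0.05. Falls in these lists depended on the scaling: with spike-in scaling, 0 synthetases, 2 of the enzymes and 0 of the glutathione genes were lower with TBT, and the same numbers with AGN194204.

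Of 13 other amino acid carriers outside the 7 families, 2 rose and 1 fell with TBT and with AGN194204 alike in number. The shares over all genes were 15% higher and 13.9% lower with TBT, and 12.8% and 11.3% with AGN194204. The mitochondrial aspartate-glutamate carrier Slc25a13 fell by 0.52 ± 0.11 and the mitochondrial glutamate carrier Slc25a22 rose by 0.37 ± 0.07 with TBT, and the lysosomal cystine exporter Ctns rose by 0.44 ± 0.10 with AGN194204. Of 8 partners and trafficking factors of carriers, 2 rose and 2 fell with each of these compounds. Txnip, which lowers glucose carriers at the membrane, rose by 0.83 ± 0.11 with TBT, Cd44, which stabilises the cystine exchanger and also marks stromal cells, fell by 0.41 ± 0.03, and the ubiquitin ligase Nedd4 rose by 0.15 ± 0.03.

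H3K4me3 marks active promoters and H3K27me3 marks Polycomb-repressed chromatin. Start sites could be placed for 48 of the 66 entries, 22 of them tested in RNA. The tested genes Slc1a5, Slc38a1, Slc43a3, Slc6a6, Slc6a8, Slc7a2, Slc7a3 and Slc7a5 had none, so islands at their starts were not examined. An H3K4me3 island, a stretch of enriched reads called by the authors in each library, was sought within 1000 bases of a start. It was there in all 8 libraries at 23 of the 48 members (47.9%) and at 42.4% of 27025 RefSeq genes. Split by RNA, these were 19 of the 22 tested genes (86.4%) and 4 of the 26 untested genes (15.4%). The tested genes were picked by their RNA counts and the RefSeq genes were not, so the 86.4% has no like share here. The 4 untested genes were Slc1a1, Slc6a4, Slc6a5 and Slc7a8, and each also had H3K27me3 in most or all libraries. H3K27me3 in at least 1 library was found at 30 of the 48 members (62.5%) and at 39.4% of all RefSeq genes. Among the members these were 8 of 22 tested (36.4%) and 22 of 26 untested genes (84.6%). This split also follows the RNA counts, so neither the 36.4% nor the 84.6% has a like share here. These shares describe the libraries and no test was made of them.

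Of the tested genes without H3K4me3 in every library, Slc38a4 had an island in 1 DMSO library and 0 TBT libraries, Slc6a12 in 1 of each and Slc7a7 in 0. Slc38a4 and Slc7a7 had no H3K27me3 island either, so no TBT library had an island of either mark at the 3 annotated starts of Slc38a4, which rose with TBT. Slc43a1 had H3K4me3 in all 8 libraries together with H3K27me3 in 3 of 4 DMSO and 4 of 4 TBT libraries. The H3K27me3 reads there (per 1000000 reads in islands) had a median of 64.5 in DMSO and 45.9 with TBT. Their ranges of 0 to 96.3 and 42.4 to 78.2 overlap. Slc6a17 was the only tested member with both marks in all 8 libraries of each. Slc38a2 had an H3K4me3 island in every library, with a median of 197 reads (per 1000000 reads in islands) in DMSO and 208 with TBT, ranges of 184 to 222 and 177 to 232 that overlap.

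**Figure D4:**
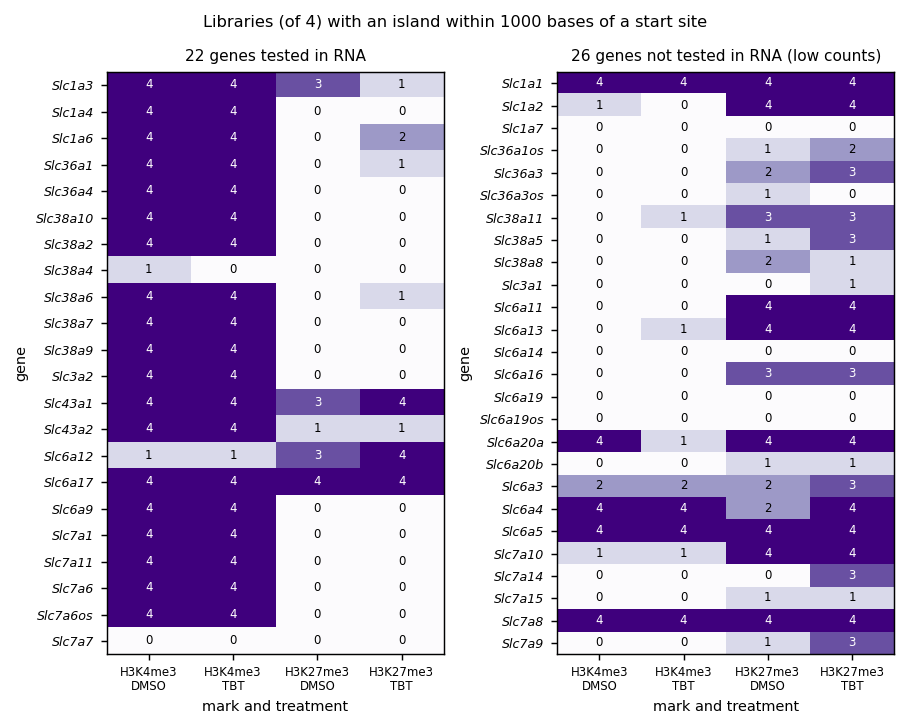
Number of libraries, of 4 per mark and treatment (columns), with an island within 1000 bases of a start site, for the 22 tested genes (left rows) and the 26 untested genes (right rows) with a RefSeq start; darker cells hold more libraries. The tested genes show H3K4me3 in 4 of 4 libraries at 19 rows, and the untested genes mostly show H3K27me3.

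In the authors' deposited table of H3K27me3 peaks that differ between TBT and DMSO, 6 of 4329 peaks lay on members (within 1000 bases of the gene). The share of all genes with such a peak was not counted for either mark. Whether the members hold many or few of them therefore cannot be said. In the authors' deposited table, the peak within Slc36a1 (chr11:55232401-55236200), 28061 bases from its start, was higher with TBT by 4.56 (log2, FDR 0.000727). Its log2 concentration was 0.45 in DMSO and 5.01 with TBT. The peak in Slc7a2 (chr8:40911001-40920000) was lower with TBT by 5.52 in the authors' deposited table (FDR 0.000925), at 5.3 in DMSO and -0.22 with TBT. In both peaks the lower side held very few reads, so the sizes of these changes are uncertain. The authors' deposited table also lists a peak over the start of Slc38a5, which had 1 count in RNA, higher with TBT by 2.27 (FDR 0.0436), and peaks on Slc1a6, Slc6a20a and Slc7a14 that were lower. For H3K4me3 the authors' deposited table has 246 peaks, 2 of them on members, Slc1a2 and Slc1a3, both lower with TBT and both away from the start. In RNA, Slc36a1 was higher with TBT while a body peak of H3K27me3 was also higher, and Slc7a2 was not past the threshold with TBT while its peak was lower.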

How the data were processed

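The authors deposited raw read counts per gene symbol for 24 RNA libraries. Tools named in the submitters' processing notes are FastQC, STAR, SAMtools, DESeq2, SICER and DiffBind, with builds GRCm38 and mm10. The read counter and its strand setting are not given in the sources used here, and overlapping genes and near-identical copies such as Slc6a20a and Slc6a20b are therefore uncertain. The 92 ERCC rows and the 5 rows of unassigned reads (20.9% to 24.3% outside genes, 1.85% to 2.02% ambiguous) were left out of library sizes.

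Counts were tested with edgeR 4.0.16 (R 4.3.3; quasi-likelihood F test, TMM, filterByExpr with its minimum count of 10) in 1 fit of 24 libraries with treatment as the only term. All 12529 genes were adjusted together by Benjamini-Hochberg, with 0.05 as the threshold. CPM are counts divided by the TMM-scaled library size, times 1000000, and not per length, so a gene is compared only with itself. DESeq2 1.42.0 and 6 other settings were run as alternatives. Within groups, every pair of libraries differed by more than sampling noise.

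Islands were called per library, per the file names. The authors' deposited differential tables give log2 concentrations and log2 fold, and FDR values (p-value adjusted by the authors). Start sites, promoters and gene positions are from RefSeq (GRCm38.p6), where all 66 symbols matched.

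Named genes were 11 listed by name, every member past the threshold against DMSO, at most 5 per direction between compounds and at most 4 per other list. The antioxidant element was searched as TGAC, 3 free bases and GC. The form first planned had C or G after TGA, 4 free bases, GC and any base. Sites that begin with TGAG were therefore not counted. Members and lists were chosen with earlier results of these data known.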

Additional observations from a re-analysis of the deposited data

Results flagged for a closer look

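Among 84 groups of 6 libraries (21 named genes in 4 treatments), 3 had a library whose distance to its nearest neighbour was above the 0.625 of the group's range that Dixon's test allows at 95%. Chance gives such a value in about 1 of 20 groups. Slc7a11 in DMSO replicate 3 was at 65.5 CPM, with the other DMSO libraries at 47.4 to 53.6. Slc6a9 in the same library was at 51.3 CPM, with the others at 56.4 to 59.2. Slc38a1 in TBT replicate 2 was at 406 CPM, with the others at 323 to 340. The TBT calls of Slc7a11 and Slc6a9 held in all 12 fits that left out a library of either group, and Slc38a1 was past the threshold in 0 of them.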

How the results depend on the processing

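For TBT against DMSO 18 members were higher under 5 of the 7 alternatives (DESeq2, upper-quartile scaling, a filter of at least 1 CPM in 6 libraries, only the 2 groups compared, the replicate block), 19 with no filter on low counts and 15 with ERCC scaling, with 0 lower in each. Slc38a2, Slc7a1 and Slc7a6 were not past the threshold with ERCC scaling although their log2 changes were larger there, at 0.20, 0.27 and 0.27 (main 0.11, 0.17 and 0.18). Without each library in turn (12 fits, chosen after seeing the data), 17 to 18 were higher, and 16 of the 18 passed in every fit, Slc36a1 and Slc7a6 being the exceptions. For AGN194204 against DMSO, ERCC scaling gave 3 higher (main 9) and 0 lower (main 1). Fitting only the 2 groups compared gave 2 lower, and so did the replicate block, the added gene being Slc38a1, while Slc36a1 lost its call with only the 2 groups (adjusted p = 0.0565) and Slc7a5 with no filter (adjusted p = 0.101). Leaving out a library gave 6 to 9 higher and 0 to 2 lower, and 5 of the 10 calls passed in every fit (Slc38a7, Slc38a10, Slc43a1, Slc43a2, Slc6a8). TBT against AGN194204 gave 1 higher with ERCC scaling and 1 with only the 2 groups compared (main 3), and 3 to 5 without a library. TBT against rosiglitazone gave 0 lower with ERCC scaling (main 1) and 0 to 1 without a library. AGN194204 against rosiglitazone gave 1 lower with upper-quartile scaling, 1 with only the 2 groups compared and 1 with the replicate block (main 0), and 0 to 1 without a library. Of its 9 higher calls, Slc7a1, Slc7a3 and Slc7a5 were lost with ERCC scaling, Slc7a3 and Slc7a5 with no filter, and Slc7a3 also with the 1 CPM filter and with only the 2 groups. Where the cause is not the scaling or the smaller fit itself, the cause was not tested.

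Directions reversed only where the change was near 0 and not past the threshold. Slc38a1 with TBT was -0.000246 with DESeq2, -0.00169 with upper-quartile scaling and -0.00169 with the replicate block. With rosiglitazone and ERCC scaling Slc1a5 was -0.0215, Slc38a1 -0.0382, Slc38a10 -0.0335 and Slc6a6 -0.00654. The labels number replicates alike in each group, but the deviations of same-numbered libraries correlated above 0.1 in only 12 of 36 pairs (r of -0.0989 to 0.266), and 9 of 24 libraries correlated best with their own number. The numbers were therefore not taken as pairs and the block is an alternative. It raised the calls over all genes in each comparison, to 1999 higher and 1883 lower for TBT against DMSO (main 1878 and 1745). Apart from the counts above it changed no count of members.

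ERCC scaling moved the median log2 change of all genes by 0.09 for TBT and 0.01 for AGN194204 against DMSO, by 0.08 for TBT against AGN194204 and by 0.13 for TBT against rosiglitazone, and the ratio of spike-in to gene counts varied within groups (0.376 to 0.502 per 100 gene counts in DMSO, 0.326 to 0.453 with TBT). Over all genes it gave 908 higher and 300 lower for AGN194204 against DMSO (main 1600 and 1414), 21 and 12 for rosiglitazone (main 77 and 53), 13 and 7 for TBT against AGN194204 (main 51 and 55), 2426 and 172 for TBT against rosiglitazone (main 1908 and 1690) and 1162 and 184 for AGN194204 against rosiglitazone (main 1697 and 1400). Rosiglitazone against DMSO gave 97 and 102 with no filter, 114 and 122 with only the 2 groups and 113 and 110 with the block. TBT against AGN194204 gave 31 and 30 with only the 2 groups and 86 and 83 with the block. With ERCC scaling 0 of the ATF4 response genes and 0 of the synthetases were lower with TBT or AGN194204. Depth limits the low members: the 6 tested members with a mean under 10 CPM in every group had standard errors of 0.17 to 0.50 on the log2 scale.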
